A study of Mus musculus with 8 samples.

Results

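The hyaluronan genes described here were 10 mouse genes that make, bind or break down hyaluronan, chosen by name: the synthases Has1, Has2 and Has3, the matrix binders Tnfaip6, Vcan and Hapln1, the receptor Cd44, and the degradation genes Hyal1, Hyal2 and Tmem2. All 10 were found among the 53801 genes of the table, and all 10 were among the 15283 genes that received an adjusted p-value. They were measured in 8 RNA-seq libraries of stromal cells from MO5 tumors, a melanoma grown under the skin of mice from B16 cells that express ovalbumin. The cells were sorted as PDPN+ PDGFRα+ and CD45- CD31-, and then divided by GFP into ADAM12+ cells (GFP+, 4 libraries) and ADAM12- cells (GFP-, 4 libraries). The question was which transcripts differ between the ADAM12+ stromal cells and their ADAM12- neighbours.

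The mice were young adults on the C57Bl/6 background, and cells of both groups came from tumors in animals with the same transgene, a bacterial artificial chromosome in which Adam12 regulatory sequences drive Cre-Ires-GFP. GFP therefore reported the activity of the transgene and not the level of the Adam12 transcript itself. The labels number the replicates but do not say that each came from a separate animal. The study's statistics section states that n counts mice unless another unit is given, and its legend for this comparison gives none. It also states that technical replicates were not pooled across independent experiments. By that rule the replicates would be separate mice, but the labels name no animal or pool. The p-values measure the spread among these libraries, which may still be partly technical.

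Hyaluronan is a long, unbranched sugar polymer that HAS enzymes in the plasma membrane build from UDP-glucuronic acid and UDP-N-acetylglucosamine and push out of the cell. Outside the cell it is held by proteins with a link module, such as versican (Vcan), TSG-6 (Tnfaip6), link protein (Hapln1) and the receptor CD44, which turn it into a hydrated coat. It is cut by hyaluronidases at the cell surface and in lysosomes. Fibroblasts are a main source of hyaluronan in skin and in tumor stroma.

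Total counts ran from 883144 in GFP- replicate 3 to 31666734 in GFP+ replicate 4. GFP- replicate 3 had a size factor of 0.0910, so 3 reads, the limit that a count of 0 allows, were worth 33.0 normalised counts there and at most 4.17 in any other library. Such limits cover counting error only. A normalised count is the number of reads divided by the size factor of the library. Adam12 itself was at 920 to 1693 normalised counts in GFP- libraries and 1833 to 2938 in GFP+ libraries, a log2 fold change of 0.75 ± 0.24 (SE, DESeq2 adjusted p = 0.0266, edgeR adjusted p = 0.0643). Fibroblast markers were abundant in both groups, with 6 of 8 called higher in GFP+ cells by DESeq2 and 5 by edgeR, and a summed normalised count of 253552 to 559288 in GFP- and 666226 to 764372 in GFP+ libraries. All 12 melanocyte markers were lower in GFP+ cells, with a median log2 fold change of -3.07, and none was at 0 in every library. The melanocyte sum was 28633 to 85532 normalised counts in GFP- and 5787 to 14776 in GFP+ libraries, and it was highest in replicate 4 of each group. Among 15 leukocyte markers DESeq2 called 0, and 0 of those given a p had an unadjusted p under 0.05 by DESeq2 or edgeR. DESeq2 called 1 of 10 endothelial markers (Vwf, lower), 1 of 6 pericyte markers (Abcc9, higher) and 0 of 7 keratinocyte markers, of which 2 (Krt5 and Dsp) had an unadjusted p under 0.05 by DESeq2 and 1 (Dsp) by edgeR. Of the 8 endothelial markers with an adjusted p, 3 had an unadjusted p under 0.05 by DESeq2 and 2 by edgeR, and the median log2 fold change was 0.25. In bulk samples fewer cells of a type and less RNA per cell cannot be told apart.

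The stretches before the start sites of Tnfaip6, Vcan and Has1 are shown because these were the matrix binder with the highest level per length, a binder with separated groups, and the most abundant synthase. Sequences came from the RefSeq promoter table on GRCm38.p6, in which 7 of the 10 genes had an entry (not Has2, Has3 or Tmem2). Capitals mark matches on either strand to an AP-1 site (TGANTCA), a cAMP response element (TGACGTCA), a GC box (GGGCGG) or a CCAAT box (CCAAT). Each sequence is written 5′ to 3′ on the strand of its gene and holds bases before both the RefSeq and the GENCODE start. The windows are chr2:52037863-52038008 on the plus strand for Tnfaip6, chr13:89742513-89742762 on the minus strand for Vcan and chr17:17855206-17855438 on the minus strand for Has1.
Tnfaip6: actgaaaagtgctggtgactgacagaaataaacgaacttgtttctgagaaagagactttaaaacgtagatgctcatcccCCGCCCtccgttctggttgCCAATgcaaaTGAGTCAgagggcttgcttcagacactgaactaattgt
Vcan: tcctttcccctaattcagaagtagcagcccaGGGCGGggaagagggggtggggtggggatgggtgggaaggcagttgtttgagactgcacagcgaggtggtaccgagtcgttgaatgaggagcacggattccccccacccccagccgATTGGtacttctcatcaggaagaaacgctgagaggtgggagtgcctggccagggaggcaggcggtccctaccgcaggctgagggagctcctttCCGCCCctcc
Has1: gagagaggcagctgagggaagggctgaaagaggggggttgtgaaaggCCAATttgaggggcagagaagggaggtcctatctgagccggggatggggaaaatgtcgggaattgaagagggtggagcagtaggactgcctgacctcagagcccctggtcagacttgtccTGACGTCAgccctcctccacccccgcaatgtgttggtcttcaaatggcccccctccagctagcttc

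Motifs were searched from 250 bases before to 50 bases after each RefSeq start on both strands. The AP-1 letters were in 7.81% of 32851 mouse promoters of that length and, among the 7 genes with an entry, in Tnfaip6. The cAMP response element was in 1.79% of promoters and in Has1, with its first base 83 bases before the start. The GC box was in 35.7% of promoters and in Tnfaip6, Vcan, Cd44, Hyal1 and Hyal2. CCAAT was in 37.4% of promoters and in Has1, Tnfaip6, Vcan and Hyal1. The TEAD letters GGAATG were in 14.7% of promoters and in Hyal2 and Tnfaip6. An NF-κB site was in 8.46% of promoters and in Hyal2. The STAT letters TTCCNGGAA (1.15% of promoters), TATAAA (13.6%) and the E-box CACGTG (7.15%) were in none of the 7 windows. A match in this window describes letters, not binding.

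DESeq2 called 3 of the 10 genes at an adjusted p under 0.05. Has2 and Vcan were higher in GFP+ cells and Hapln1 was lower. Across all tested genes, 4.66% were called higher and 4.76% lower. The median log2 fold change of the 10 genes was 0.42, against -0.0082 over all tested genes. edgeR's quasi-likelihood test called 0 of the 10 genes, of which 5 (Has1, Has2, Tnfaip6, Vcan and Hapln1) had an unadjusted p under 0.05, while it called 2.83% of all tested genes higher and 2.28% lower. The groups did not overlap for Vcan, higher in GFP+, and for Hapln1, lower in GFP+. That separation held for 6.37% of all tested genes in the higher and 5.95% in the lower direction.

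**Figure D1:**
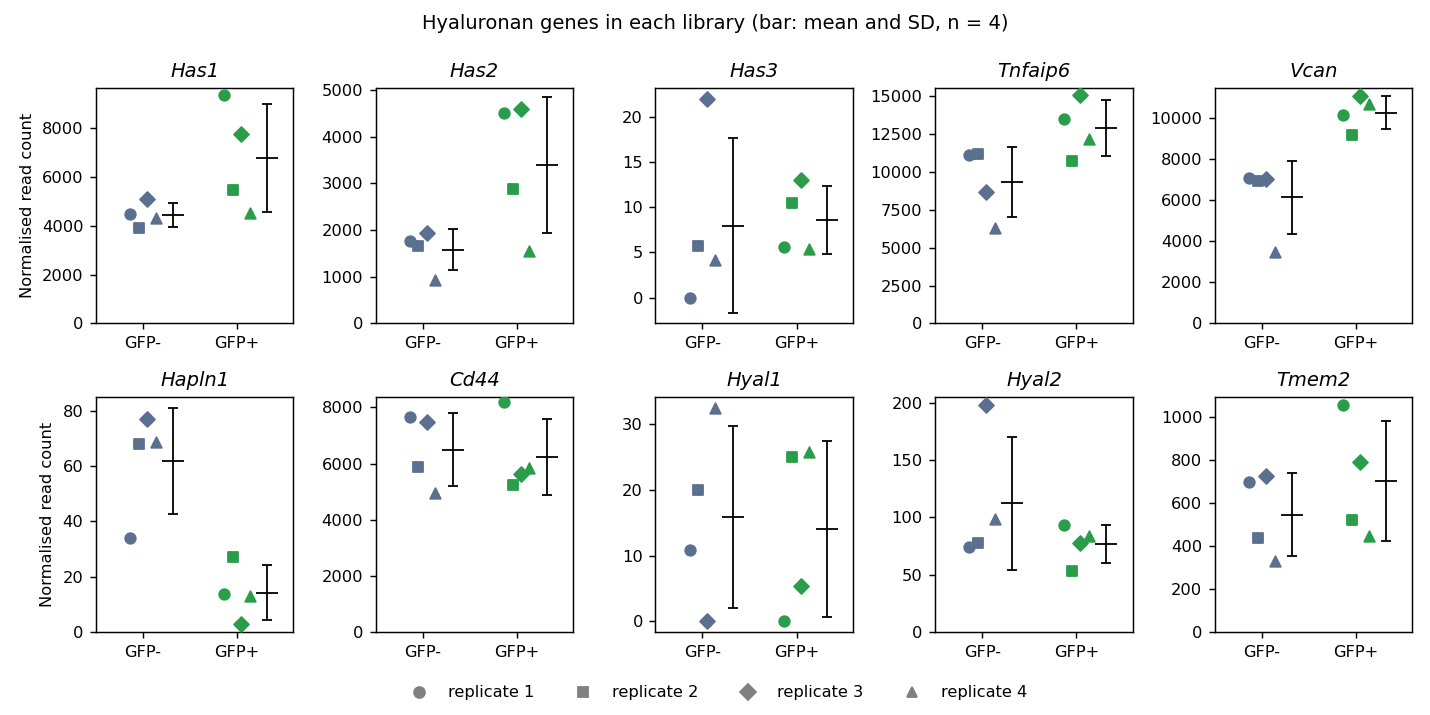
Normalised read counts (vertical axis, linear) of the 10 hyaluronan genes in each library, GFP- in blue and GFP+ in green, with marker shapes for replicates 1 to 4 and bars for the group mean and SD (n = 4). Vcan and Hapln1 have separated groups, and in Has2 only GFP+ replicate 4, at 1555, lies within the GFP- range.

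Among the synthases, Has2 was the gene that rose. Has2 makes most of the hyaluronan of the embryo and of many fibroblasts. It had 1764, 1659, 1934 and 938 normalised counts in GFP- replicates 1 to 4. In GFP+ replicates 1 to 4 it had 4517, 2884, 4599 and 1555. Replicate 4 was the lowest library of each group, and the groups overlapped because GFP+ replicate 4 lay below GFP- replicates 1, 2 and 3. Replicate 4 also had the highest melanocyte sum of each group (85532 in GFP- and 14776 in GFP+). Within GFP+, the other sums were 5787, 9251 and 6410 in replicates 1, 2 and 3, and the part of these transcripts in the result was not tested. The fibroblast markers had a median log2 fold change of 0.89, and their part was not tested either. The group means were 1574 ± 439 and 3389 ± 1455 (SD, n = 4 each), a ratio of 2.15. The log2 fold change was 1.11 ± 0.34 (SE, DESeq2 adjusted p = 0.0173, edgeR adjusted p = 0.0596, limma voom adjusted p = 0.0639). The DESeq2 call was lost when replicate 1 (adjusted p = 0.0597) or replicate 3 (0.108) of the GFP+ group was left out, and when replicate 4 of the GFP- group was (0.0695). Has2 (ENSMUSG00000022367) lies at chr15:56665627-56694539 on the minus strand of GRCm38. The antisense gene Has2os overlaps it on the other strand, and reads were counted by strand. Has2os was at 63.9 to 186 normalised counts over the 8 libraries, with a log2 fold change of 0.11 ± 0.47 (DESeq2 adjusted p = 0.941).

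Has1 was the synthase with the highest level in every library. Like Has2 it makes hyaluronan at the plasma membrane. Its normalised counts were 4481, 3901, 5098 and 4311 in GFP- replicates 1 to 4. In GFP+ replicates 1 to 4 they were 9380, 5475, 7790 and 4525. GFP+ replicates 1, 2 and 3 lay above all GFP- libraries, and GFP+ replicate 4 lay below GFP- replicate 3. The log2 fold change was 0.61 ± 0.24 (SE), which missed the threshold (DESeq2 adjusted p = 0.0854, edgeR adjusted p = 0.120). Without GFP+ replicate 4 it was 0.77 and passed it (DESeq2 adjusted p = 0.00746), and without GFP+ replicate 1 it was 0.43 (DESeq2 adjusted p = 0.242). Has1 (ENSMUSG00000003665) lies at chr17:17843323-17855205 on the minus strand.

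Has3, the third synthase, was near the limit of detection. It had 0, 8, 2 and 8 reads in GFP- replicates 1 to 4 and 4, 25, 17 and 16 reads in GFP+ replicates 1 to 4. These were 0 to 22.0 normalised counts in GFP- and 5.37 to 13.1 in GFP+ libraries, with overlapping groups, and the highest value came from the 2 reads of the shallow GFP- replicate 3. The count of 0 in GFP- replicate 1 allows up to 4.07 normalised counts. A difference was not detectable at this depth (log2 fold change 0.62 ± 1.17, DESeq2 adjusted p = 0.842), and edgeR's filter left the gene out. Has3 (ENSMUSG00000031910) lies at chr8:106870242-106884566 on the plus strand.

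Per kilobase of exon, so that genes of different length can be compared, Has1 was at 985 ± 110 in GFP- and 1503 ± 488 in GFP+ cells (normalised counts per kilobase, SD, n = 4 each). Has2 was at 371 ± 104 and 800 ± 343 on the same scale. Has1 thus made up 72.8% ± 5.61 of the synthase level in GFP- and 66.1% ± 5.06 in GFP+ libraries, and Has2 27.1% ± 5.60 and 33.8% ± 5.05. The Has1 share ran from 68.8% to 81.1% in GFP- and from 61.3% to 73.1% in GFP+ libraries, so the groups overlapped. Summed over the 3 synthases, the level was 1357 ± 182 in GFP- and 2305 ± 817 in GFP+ cells. The sum in GFP+ replicate 4, at 1370 per kilobase, was within the GFP- range of 1176 to 1588.

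**Figure D2:**
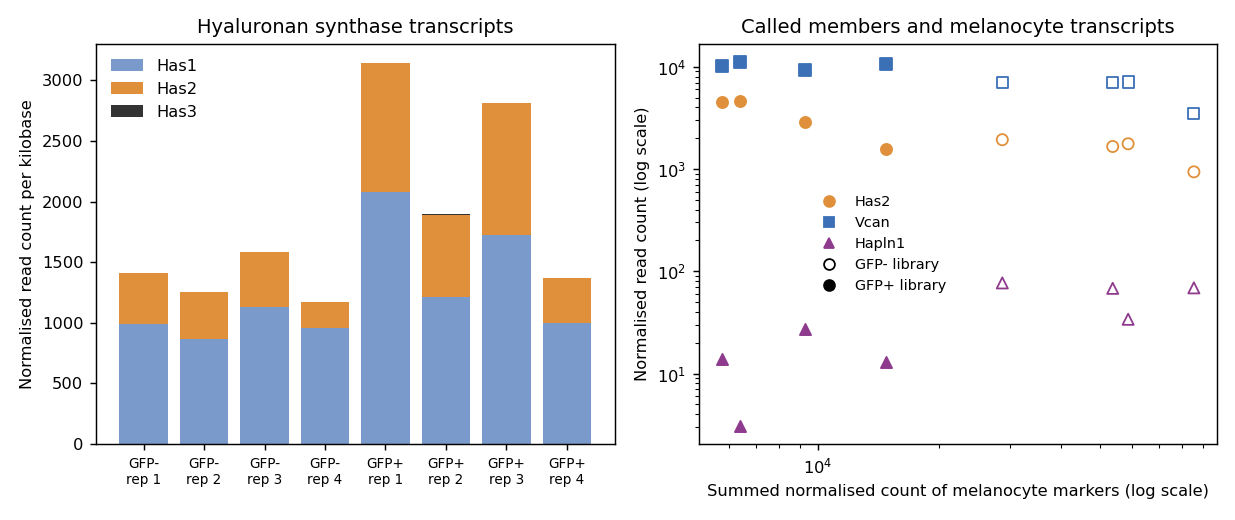
Left, stacked bars of the Has1, Has2 and Has3 levels (normalised read count per kilobase of exon) in each of the 8 libraries; Has1 is the largest block in every bar and Has3 is barely visible. Right, normalised counts of Has2, Vcan and Hapln1 against the summed normalised count of 12 melanocyte markers (both axes log scale), open symbols for GFP- and filled for GFP+ libraries; the GFP+ sums, at most 14776, all lie below the GFP- sums, which start at 28633.

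Vcan was the matrix gene that rose with separated groups. Versican is a large chondroitin sulfate proteoglycan that binds hyaluronan through its link modules. It had 7087, 6946, 7065 and 3505 normalised counts in GFP- replicates 1 to 4. In GFP+ replicates 1 to 4 it had 10164, 9212, 11079 and 10702. Every GFP+ library lay above every GFP- library, and GFP- replicate 4 stood well below the other GFP- libraries. The means were 6151 ± 1765 and 10289 ± 810 (SD, n = 4 each), and the log2 fold change was 0.74 ± 0.23 (SE, DESeq2 adjusted p = 0.0201, edgeR adjusted p = 0.0577, limma voom adjusted p = 0.0150). Without GFP- replicate 4 it was 0.55 (DESeq2 adjusted p = 0.0012). The call was lost without GFP+ replicate 3 (DESeq2 adjusted p = 0.0848) or GFP+ replicate 4 (0.0508). GFP- replicate 4 also had the highest melanocyte sum (85532) and the lowest fibroblast sum (253552) of the 8 libraries. The 8 fibroblast markers had a median log2 fold change of 0.89 between the groups, above that of Vcan. The part of either marker set in the result was not tested. Vcan (ENSMUSG00000021614) lies at chr13:89655312-89742509 on the minus strand.

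Tnfaip6 had the highest level per length of the 10 genes in both groups. Its product, TSG-6, is a secreted link-module protein that transfers heavy chains of inter-alpha-inhibitor onto hyaluronan. Its normalised counts were 11104, 11206, 8680 and 6326 in GFP- replicates 1 to 4. In GFP+ replicates 1 to 4 they were 13492, 10753, 15096 and 12189. GFP+ replicate 2 lay below GFP- replicates 1 and 2, and the other GFP+ libraries lay above all GFP- libraries. The log2 fold change of 0.47 ± 0.21 (SE) did not pass the test (DESeq2 adjusted p = 0.177, edgeR adjusted p = 0.218). Tnfaip6 (ENSMUSG00000053475) lies at chr2:52038009-52056686 on the plus strand.

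Hapln1 was the gene that fell. Its product, link protein, fixes the bond between hyaluronan and proteoglycans such as versican. It had 33.9, 68.1, 76.9 and 68.8 normalised counts in GFP- replicates 1 to 4, from 25, 95, 7 and 131 reads. The GFP+ replicates 1 to 4 had 13.9, 27.2, 3.07 and 13.1, from 10, 65, 4 and 39 reads. All GFP+ libraries lay below all GFP- libraries, at counts low enough that the value of GFP- replicate 3 rests on 7 reads. The log2 fold change was -2.07 ± 0.66 (SE, DESeq2 adjusted p = 0.0234, edgeR adjusted p = 0.173, limma voom adjusted p = 0.0589). Of the GFP- libraries, leaving out replicate 2 (DESeq2 adjusted p = 0.115), replicate 3 (0.0517) or replicate 4 (0.135) ended the call. Of the GFP+ libraries, leaving out replicate 3 (DESeq2 adjusted p = 0.0559) or replicate 4 (0.0892) did so. Between the groups Hapln1 moved in the same direction as the melanocyte sum. Within each group the libraries did not rank in the same order: GFP- replicate 3 had the highest Hapln1 value and the lowest GFP- melanocyte sum (28633). The part of these transcripts in the result was not tested. Hapln1 (ENSMUSG00000021613) lies at chr13:89539796-89611652 on the plus strand.

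Cd44 was abundant in both groups, and the test found no difference. CD44 is the main cell-surface receptor for hyaluronan and a common marker of mesenchymal cells. It had 7676, 5889, 7471 and 4969 normalised counts in GFP- replicates 1 to 4. The GFP+ replicates 1 to 4 had 8210, 5239, 5630 and 5847. The groups overlapped: GFP+ replicate 1 was the highest and GFP- replicate 4 the lowest of the 8 libraries, while GFP- replicates 1, 2 and 3 lay above GFP+ replicates 2, 3 and 4. On the log2 scale the fold change was -0.06 ± 0.21 (SE, DESeq2 adjusted p = 0.928, edgeR adjusted p = 0.936), and its sign turned when GFP- replicate 1 (0.032) or 3 (0.0052) was left out, or replicate 2 of the GFP+ group (0.016). Cd44 (ENSMUSG00000005087) lies at chr2:102811141-102901665 on the minus strand.

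None of the 3 degradation genes passed the DESeq2 test, and none had an unadjusted p under 0.05 by DESeq2 or edgeR. Tmem2, also named Cemip2, encodes a membrane protein described as a cell-surface hyaluronidase. It was the most abundant of the 3, with 695, 435, 725 and 329 normalised counts in GFP- replicates 1 to 4. The GFP+ replicates 1 to 4 had 1055, 520, 791 and 445. The groups overlapped, with GFP+ replicates 2 and 4 below GFP- replicates 1 and 3. GFP+ minus GFP-, the log2 fold change was 0.38 ± 0.35 (SE, DESeq2 adjusted p = 0.588, edgeR adjusted p = 0.570), and it was 0.14 without GFP+ replicate 1. Tmem2 (ENSMUSG00000024754) lies at chr19:21778342-21858360 on the plus strand.

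Hyal2 encodes a membrane-anchored hyaluronidase that cuts the long polymer into fragments. It had 74.6, 78.1, 198 and 98.2 normalised counts in GFP- replicates 1 to 4 and 93.0, 53.6, 77.6 and 83.5 in GFP+ replicates 1 to 4. The GFP- value that stood out, 198, came from 18 reads of the shallow replicate 3, and the other libraries overlapped. The log2 fold change was -0.42 ± 0.40 (SE, DESeq2 adjusted p = 0.607), and it was -0.14 without GFP- replicate 3. The ratio of the Tmem2 to the Hyal2 level per kilobase ran from 1.29 to 3.60 in GFP- and from 2.06 to 4.38 in GFP+ libraries, so both groups had more Tmem2 in every library and overlapped in the ratio.

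Hyal1 encodes the lysosomal hyaluronidase that takes the fragments further. It had 10.9, 20.1, 0 and 32.6 normalised counts in GFP- replicates 1 to 4 and 0, 25.1, 5.38 and 25.8 in GFP+ replicates 1 to 4. Each group held a library without a read, and the 0 of GFP- replicate 3 allows up to 33.0 normalised counts while that of GFP+ replicate 1 allows up to 4.17. A difference was not detectable at this depth (log2 fold change -0.28 ± 1.18, DESeq2 adjusted p = 0.943), and its sign turned without GFP- replicate 4 (0.29) or GFP+ replicate 1 (0.08). Hyal1 overlaps Hyal3 and Naa80 on the same strand, so reads could be lost or split between them. Hyal2 (ENSMUSG00000010047) lies at chr9:107567945-107572779 and Hyal1 (ENSMUSG00000010051) at chr9:107576927-107581710, both on the plus strand.

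Levels per kilobase of exon spanned from 5456 ± 1355 (Tnfaip6) to 1.25 ± 1.51 (Has3) in GFP- cells (normalised counts per kilobase, SD, n = 4). Without the shallow GFP- replicate 3, the Has3 level in GFP- cells was 0.519. The order in GFP- cells was Tnfaip6, Has1, Cd44, Vcan, Has2, Tmem2, Hyal2, Hapln1, Hyal1 and Has3. Neighbours whose libraries overlapped were Has1 and Cd44, Vcan and Has2, Tmem2 and Hyal2, Hapln1 and Hyal1, and Hyal1 and Has3. In GFP+ cells the order was Tnfaip6, Has1, Cd44, Has2, Vcan, Tmem2, Hyal2, Hyal1, Hapln1 and Has3, from 7534 ± 1083 for Tnfaip6 to 1.35 ± 0.594 for Has3. There Has1 overlapped with Cd44, Cd44 with Has2, Has2 with Vcan, Hyal1 with Hapln1, and Hapln1 with Has3. Hapln1 was at 10.5 ± 3.24 per kilobase in GFP- and 2.42 ± 1.68 in GFP+ cells. Vcan, the proteoglycan it links, was at 425 ± 122 and 711 ± 56.0 per kilobase.

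**Figure D3:**
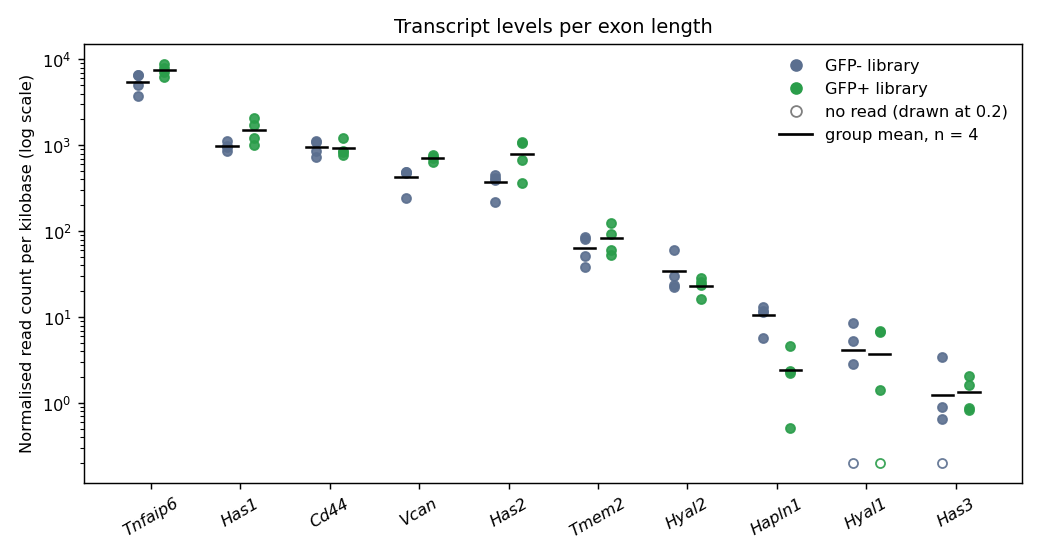
Levels of the 10 hyaluronan genes (normalised read count per kilobase of exon, log scale) in GFP- (blue) and GFP+ (green) libraries, with black lines for group means (n = 4) and open circles, drawn at 0.2, for libraries without a read. Tnfaip6 is the top gene in both groups, Has1, Cd44, Vcan and Has2 follow, and Hapln1, Hyal1 and Has3 are the lowest.

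The other genes of the pathway were read from 6 lists. Across all tested genes, 4.66% were called higher and 4.76% lower by DESeq2. Separated groups were seen in 6.37% of them in the higher and 5.95% in the lower direction. Of 9 genes that supply the nucleotide sugars, DESeq2 called 0 higher and 1 lower, and the median log2 fold change was -0.25. The lower gene was Uap1l1, a relative of the UDP-N-acetylglucosamine pyrophosphorylase Uap1, which fell from 700.4 ± 226 to 270.3 ± 19.9 normalised counts (log2 fold change -1.40 ± 0.25, DESeq2 adjusted p = 2.4e-06, edgeR adjusted p = 0.0051). Its 4 GFP+ libraries, at 243 to 289, lay below all GFP- libraries, where it had 864, 620, 418 and 900 normalised counts in replicates 1 to 4. The melanocyte sum, at 58756, 53797, 28633 and 85532 in the same libraries, ranked them in the same order and was also lower in GFP+ cells, and its part in the result was not tested. Gfpt2, an isoform of the enzyme that opens the hexosamine pathway, was the most abundant of the list, at 14865 ± 2986 and 20192 ± 4998 normalised counts (log2 fold change 0.44 ± 0.22, DESeq2 adjusted p = 0.230).

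Among 17 other link-module and matrix binders, 7 had an adjusted p, 1 was called higher and 0 lower, with a median log2 fold change of 0.43. Itih5 belongs to the inter-alpha-trypsin inhibitor heavy chains, some of which are coupled to hyaluronan. It had 6823, 7246, 7933 and 6719 normalised counts in GFP- replicates 1 to 4 and 15452, 13464, 15764 and 14678 in GFP+ replicates 1 to 4. The groups were far apart and each was tight, and the log2 fold change was 1.05 ± 0.12 (SE, DESeq2 adjusted p = 1.9e-14, edgeR adjusted p = 0.0012). Ptx3, a pentraxin that joins heavy chains in hyaluronan matrix, was the most abundant of the list, at 12703 ± 3557 and 19578 ± 5956 normalised counts (log2 fold change 0.62 ± 0.27, DESeq2 adjusted p = 0.142).

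Of 7 other cell-surface receptors, 1 was called higher and 0 lower, with a median log2 fold change of 0.19. Layn, which encodes the hyaluronan receptor layilin, had 92.3, 221, 308 and 138 normalised counts in GFP- replicates 1 to 4 and 417, 339, 492 and 405 in GFP+ replicates 1 to 4. Its groups did not overlap, and the log2 fold change was 1.20 ± 0.35 (SE, DESeq2 adjusted p = 0.0102, edgeR adjusted p = 0.0609). Tlr4, the most abundant of the list, was at 830 ± 89.1 and 944 ± 157 normalised counts (DESeq2 adjusted p = 0.628). The proteins that tie CD44 to the actin cortex showed no call among 3 genes, and 0 had an unadjusted p under 0.05 by DESeq2 or edgeR. The most abundant of them, Msn, was at 5364 ± 339 and 5530 ± 468 normalised counts (DESeq2 adjusted p = 0.915).

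Among 6 ADAMTS proteases known to cut versican or related proteoglycans, 2 were called higher and 1 lower, with a median log2 fold change of 0.53. Adamts1, the most abundant, rose from 11256 ± 1374 to 21485 ± 5365 normalised counts (log2 fold change 0.93 ± 0.21, DESeq2 adjusted p = 3.3e-04). Adamts5 rose from 4279 ± 209 to 7211 ± 902 (log2 fold change 0.75 ± 0.14, DESeq2 adjusted p = 9.9e-06). Adamts20, at low counts, fell from 106 ± 17.5 to 29.4 ± 18.6 (log2 fold change -1.84 ± 0.59, DESeq2 adjusted p = 0.0255, edgeR adjusted p = 0.151). For all 3, the GFP+ libraries did not overlap with the GFP- libraries. The same held for Adamts4, which was higher in GFP+ cells but not called (DESeq2 adjusted p = 0.0993). Adamts20 moved between the groups in the direction of the melanocyte sum. Within GFP-, its lowest value (87.7) was in replicate 4, which had the highest melanocyte sum (85532). The part of that sum in the result was not tested. The rises of Itih5, Layn, Adamts1 and Adamts5 stood beside a median log2 fold change of 0.89 over the 8 fibroblast markers and the lower melanocyte sum in GFP+ cells, and the part of either in these results was not tested.

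**Figure D4:**
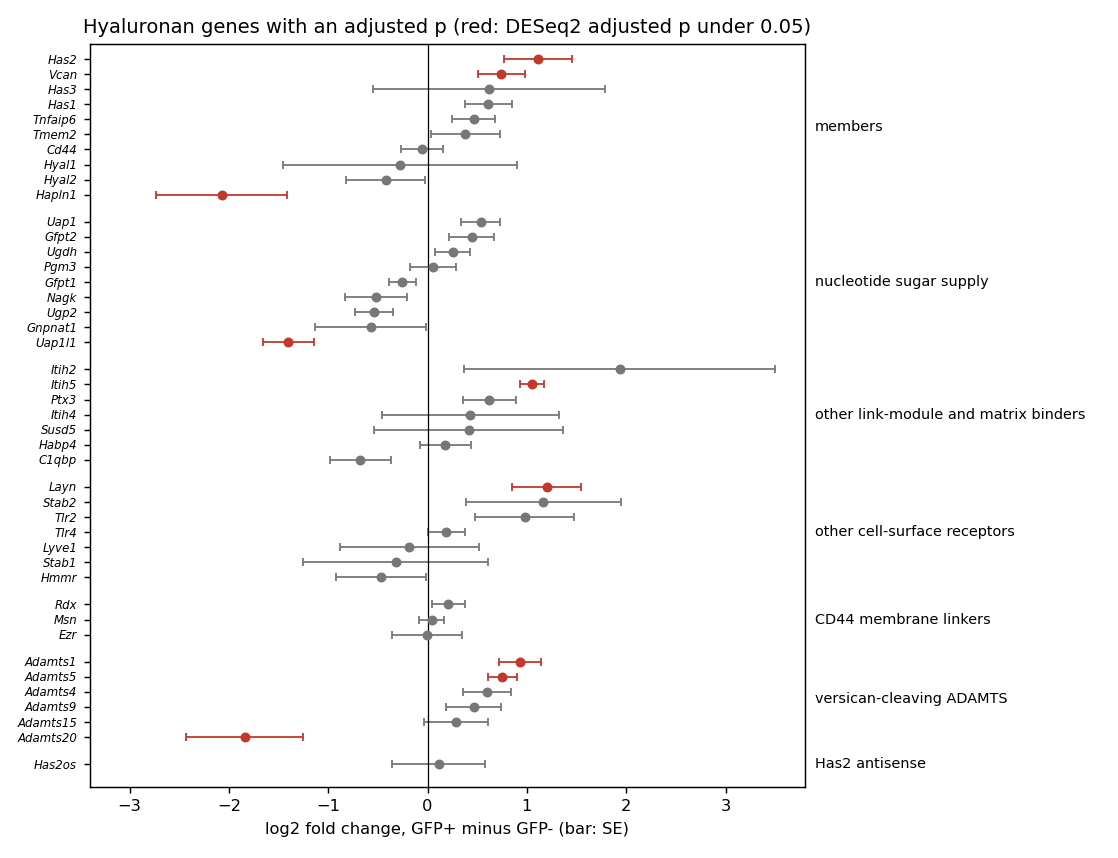
Log2 fold change, GFP+ minus GFP-, of the hyaluronan genes and of the genes in the 6 pathway lists that had an adjusted p, grouped by list, with bars for the SE. Red points have a DESeq2 adjusted p under 0.05: Has2, Vcan and Hapln1 among the 10 genes, and Uap1l1, Itih5, Layn, Adamts1, Adamts5 and Adamts20 among the others.

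Nearest patterns were the genes with the smallest root mean square difference in log2(normalised count + 1), each gene centred on its mean over the 8 libraries, among genes that averaged 100 normalised counts or more. For Has2 these were Aldh1a1 (difference 0.191), Cxcl2 (0.206) and Adgrf5 (0.214), and the SD of Has2 on that scale was 0.795. For Vcan they were Sparc (0.118), Col5a2 (0.121) and Adam19 (0.132), with an SD of 0.543 for Vcan. For Has1 they were Glul (0.113), Irak1 (0.121) and Adgrd1 (0.130). The low counts of Hapln1 and Has3 gave no close pattern, since the nearest genes, Sntb1 at 0.506 for Hapln1 and Prrx2 at 0.485 for Has3, were replaced when 10 was added in place of 1. Next in order were Cyfip2 (0.563) and Cntfr (0.584) for Hapln1, and Ttpal (0.506) and Gm8739 (0.509) for Has3.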

How the data were processed

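Libraries were made from total RNA of sorted cells with a low-input kit that keeps the strand. Per the study's methods and the submitters' processing notes, the authors trimmed reads with cutadapt 3.4, mapped them to GRCm38 with STAR 2.7.3a and counted them per gene, by strand, with featureCounts 2.0.1 against Ensembl annotation 92. The deposited table holds, for every gene and library, the raw count and the authors' normalised score, the count divided by the DESeq2 size factor and rounded. The score served only to check the size factors. The authors' fold changes and p-values in the same table were not used. Per-sample columns left unused: 0.

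Here, counts of all 8 libraries were fitted in R 4.3.3 with DESeq2 1.42.0 (group as the only term, default settings, two-sided Wald test). Adjusted p-values (Benjamini-Hochberg) cover all tested genes, and genes under 0.05 were called. No value was adjusted over a list. Alternatives were edgeR 4.0.16 (quasi-likelihood test), limma 3.58.1 (voom), TMM factors, other filters and size factors, a replicate block and each library left out in turn. Levels were divided by the exon length of GENCODE release 21 (mouse, the GRCm38 coordinates printed), in which Tmem2 is named Cemip2. The code was tested on simulated data. Replicates of a group differed by a chi-square per degree of freedom of 10.2 to 81.3, so none was a duplicate. The labels name no batch.

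The 10 genes and the lists were chosen with earlier results of these data known. Genes named were the 10, every called gene and the most abundant gene of each pathway list, and the 3 nearest patterns of Has1, Has2, Has3, Vcan and Hapln1. Vwf, Abcc9, Krt5, Dsp and Adamts4 were named after their values were seen. Adam12 was named as the basis of the sort. The list of other degradation genes is not reported here.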

Additional observations from a re-analysis of the deposited data

Results flagged for a closer look

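Vcan in GFP- replicate 4 stood apart from the other GFP- libraries. Its normalised count was 3505, and the gap to the nearest GFP- library was 0.961 of the range of the group, above the critical value of Dixon's test for 4 samples. It was the only such library among 20 groups of 4 libraries tested (10 genes in both groups), and chance alone flags about 1 in 20 groups. Without it the log2 fold change of Vcan was 0.55 (DESeq2 adjusted p = 0.0012).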

How the results depend on the processing

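The number of hyaluronan genes called, 3 by DESeq2, was 0 with edgeR, 1 with limma voom (Vcan) and 0 to 3 with a library left out, with 0 without GFP+ replicate 3 and 1 without GFP- replicate 4. It stayed at 3 with TMM factors, size factors taken only from genes averaging 100 raw counts or more, a floor of 10 on the mean raw count, and with independent filtering or the filter on Cook's distance switched off. Genes called over the whole table went from 1439 to 732 with edgeR, of which 729 were shared, and ran from 969 to 1837 with a library left out. Over 16 other settings the call was lost in 5 for Has2, 3 for Vcan and 7 for Hapln1 and gained in 2 for Has1, and none of the 4 changed sign. With a library left out, the log2 fold change ran from -0.21 to 0.032 for Cd44 and from -0.72 to 0.29 for Hyal1, and without a change of sign from 0.43 to 0.77 for Has1, -0.58 to -0.14 for Hyal2, 0.14 to 0.55 for Tmem2 and 0.17 to 1.30 for Has3. Dividing by the longest transcript in place of all exons scales both groups of a gene alike. It moved Has1 to 1256 (GFP-) and 1918 (GFP+), Cd44 to 1158 and 1110, Vcan to 495 and 828, and Tmem2 to 81.9 and 105 per kilobase. Has2 stayed at 371 and 800. The Has1 share of the synthase level was therefore larger in both groups, and Vcan stood above Has2 in GFP+ cells. Adding 10 in place of 1 kept 0 of the 3 nearest genes of Has3 and of Hapln1, and all 3 of Has1, Has2 and Vcan.

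In a fit with a replicate block, DESeq2 called 1492 genes and 4 of the hyaluronan genes. Has1 joined (DESeq2 adjusted p = 0.0349), and Has2 had a DESeq2 adjusted p of 4.4e-07. With that block edgeR, a fit chosen after seeing the data, called 596 genes and 1 hyaluronan gene (Has2, edgeR adjusted p = 0.0082). The labels do not say whether libraries that share a number came from the same tumors. The correlations of their deviations from the group means were 0.05, -0.16, -0.12 and 0.26 over 8812 genes. In each group only replicate 4 correlated best with its own number. Depth limits Has3, Hyal1 and Hapln1, above all in GFP- replicate 3.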
